A study of Homo sapiens with 60 samples.

Results

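Cells of SW1783, an established human astrocytoma line, were compared by RNA sequencing at the upper pair of doses of a hot-water extract of Coptidis Rhizoma, the rhizome of Coptis. The comparison holds 3 libraries at the high dose of 20 µg/mL and 3 at the medium dose of 4 µg/mL, 6 of the 60 libraries of the series. Members were chosen by their labels alone, and all cells were harvested 24 h after treatment. To say where a gene peaked or turned, 3 libraries at the low dose of 0.8 µg/mL and 3 of the DMSO vehicle were used as well. The vehicle is given as 0.1% DMSO by the sample labels and as 2% by the design text, and no source used here gives the DMSO content of the extract groups. Per the design text, extracts that inhibited growth strongly were used at the concentration that inhibits 20% of growth and at 1/5 and 1/25 of it, so the high dose was set by an effect on growth. The 3 doses of Coptis carry the same first code number and the vehicle another, so, against vehicle, treatment and anything that goes with that number cannot be told apart. The labels do not say whether replicates were separate cultures. The p-values measure the spread between libraries of a group, estimated over all 60 libraries of the series, and this spread may be technical.

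Coptis rhizome is a bitter herb of East Asian medicine whose best known constituent is the alkaloid berberine. Berberine is a cation that collects in mitochondria and inhibits respiratory complex I. The mitochondrial genome is read from long transcripts that are cut into ribosomal RNAs, transfer RNAs and messenger RNAs, and the ribosomal RNAs are made in large excess over the messengers. Stressed cells phosphorylate the initiation factor eIF2α, which slows translation in general and favours translation of ATF4, a transcription factor that switches on genes of amino acid synthesis and import. This programme is called the integrated stress response, and its later members include DDIT3 (CHOP) and PPP1R15A, which lifts the translation block. TXNIP, in turn, is a glucose-sensing gene that restrains glucose uptake, and the MondoA and ChREBP transcription factors drive it through a paired E-box element.

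The promoters of CHAC1, ASNS and TXNIP are shown because CHAC1 and TXNIP turned at the medium dose whereas ASNS, another ATF4 target, climbed further. They are the 250 bases before the RefSeq transcription start in GRCh38.p14, on the strand of the gene. CHAC1 lies at chr15:40953221-40953470 on the plus strand, ASNS at chr7:97872409-97872658 on the minus strand and TXNIP at chr1:145996580-145996829 on the minus strand. Capitals mark the letters TGATGNAA, the C/EBP-ATF type element, in either direction for CHAC1 and ASNS, and, for TXNIP, a pair of E-boxes of the form CACGNG with 5 bases between them, which are in capitals too.
CHAC1: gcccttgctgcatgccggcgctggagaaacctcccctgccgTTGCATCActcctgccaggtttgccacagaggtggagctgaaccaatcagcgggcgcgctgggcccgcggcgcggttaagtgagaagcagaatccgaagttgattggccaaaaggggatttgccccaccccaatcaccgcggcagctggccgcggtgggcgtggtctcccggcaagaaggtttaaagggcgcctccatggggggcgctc
ASNS: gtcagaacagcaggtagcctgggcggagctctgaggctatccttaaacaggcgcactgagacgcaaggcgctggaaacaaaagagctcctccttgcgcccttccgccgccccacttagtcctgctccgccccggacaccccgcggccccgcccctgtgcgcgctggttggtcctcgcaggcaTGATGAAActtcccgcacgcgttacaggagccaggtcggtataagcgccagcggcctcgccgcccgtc
TXNIP: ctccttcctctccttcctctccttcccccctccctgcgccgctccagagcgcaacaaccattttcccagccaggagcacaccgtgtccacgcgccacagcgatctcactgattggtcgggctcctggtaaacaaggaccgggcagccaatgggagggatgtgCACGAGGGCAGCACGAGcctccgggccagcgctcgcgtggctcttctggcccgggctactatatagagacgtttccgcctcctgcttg
The element of CHAC1 lies on the opposite strand, 209 bases before the start, and that of ASNS on the same strand, 68 bases before it. The pair of E-boxes of TXNIP begins 88 bases before its start. Over 35116 promoters of this length, searched on both strands, TGATGNAA was present in 3.14% and the paired E-box in 0.0456%. The same window of PSAT1, DDIT3 and TRIB3 held no TGATGNAA. These matches describe letters in a window and not binding.

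Library totals were 25.6 to 27.9 M counts at the high dose, 25.4 to 30.5 M at the medium dose, 24.8 to 32.8 M at the low dose and 20.8 to 25.4 M in the vehicle. Scaling factors (TMM) were 0.80 to 0.83 at the high and 0.92 to 0.93 at the medium dose. Of the markers of mature astrocytes, AQP4 had 0 counts in all 12 of these libraries, the group means of ALDH1L1 were 0 to 0.04 CPM and those of GFAP and S100B at most 0.22 CPM, whereas VIM and CD44 were abundant. Summed over the marker lists, the astroglial and mesenchymal genes (11 of 16 tested) were at 10272 to 10808 CPM at the medium and 13677 to 13967 at the high dose. Immune markers (4 of 10 tested) were at 152 to 158 and 191 to 201 CPM, and endothelial, neuronal and oligodendrocyte markers (5 of 12 tested) at 57.6 to 60.3 and 72.9 to 75.4. Single genes did not all share the direction of these sums. Of the astroglial and mesenchymal genes 7 were higher and 2 lower, of the immune markers 1 and 1 and of the last list 2 and 2. Over all tested genes 35% were higher and 36.4% lower. NES, of the first list, was at 4.85 CPM at the medium and 1.46 at the high dose. PTPRC, the leukocyte marker CD45, was at 6.52 and 5.21 CPM. The part of these marker levels in the results below was not tested.

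Raising the dose from medium to high changed most of the transcriptome. Of 17569 tested genes 12550 (71.4%) were called by edgeR's quasi-likelihood test with Benjamini-Hochberg adjustment under 0.05. The high dose was the higher in 6152 (35%) of them and the lower in 6398 (36.4%), and the median size of a called change was 0.58 on the log2 scale. Large changes leaned downward, with 968 genes (5.51%) more than 1 log2 unit higher and 2250 (12.8%) more than 1 log2 unit lower. The medium and high libraries did not overlap in 12809 genes (72.9%), of which 12022 were called. Medium dose and vehicle differed in 7241 genes (41.2%), with 21% of tested genes higher at the medium dose and 20.2% lower, and medium and low dose in 6397 (36.4%), with 18.4% higher at the medium dose and 18% lower. High dose and vehicle differed in 13207 genes (75.2%), with 37.2% above vehicle and 37.9% below it. Low dose and vehicle differed in 120 (0.683%), with 0.433% above vehicle and 0.25% below it. Scaling to library totals in place of TMM moved the median over all genes from -0.04 to -0.22 and the share of higher genes among called ones from 49% to 35.3%, so directions of small changes are relative to that shift. In bulk RNA, fewer cells expressing a gene and less of its RNA per cell cannot be told apart.

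A gene was called a peak when it was above vehicle, above the low dose and above the high dose at the medium dose, each with an adjusted p under 0.05, and a trough when it was below all of them. By this rule 578 genes (3.29%) peaked and 566 (3.22%) had a trough. At the high dose 107 of the peaks remained above vehicle, 241 were not called against it and 230 were below it. Of the troughs 79 remained below vehicle at the high dose, 200 were not called and 287 were above it. Most of these turns were small. The median of the smallest of the 3 steps was 0.23 for peaks and 0.16 for troughs, and 11 peaks and 4 troughs exceeded 1 log2 unit in every step. When each step had to exceed 1.5-fold in edgeR's test against a fold threshold, 11 peaks and 3 troughs were left.

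**Figure D1:**
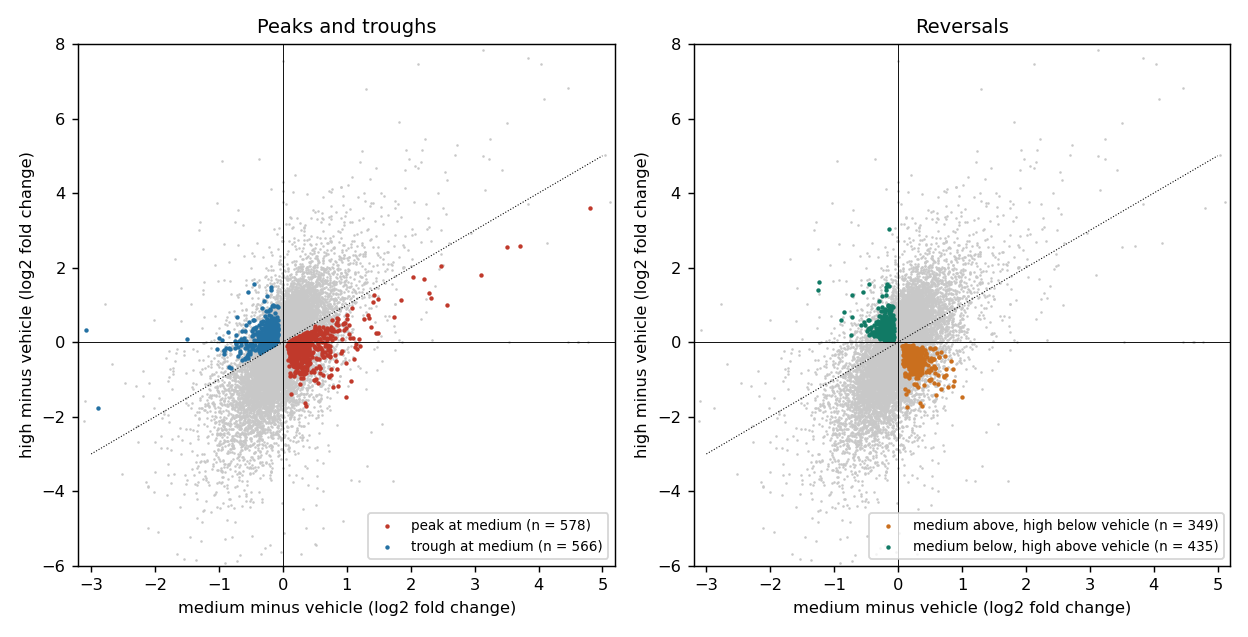
Log2 fold change against vehicle of every tested gene at the medium dose (x axis) and the high dose (y axis) of Coptis extract; coloured points are the 578 peaks and 566 troughs (left) and the 349 and 435 reversals (right), the dotted line marks equal change, and 39 genes lie outside the axes. Peaks lie right of 0 and below the dotted line, and most coloured points lie close to the origin.

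The mitochondrial ribosomal RNAs peaked at the medium dose, and among the named peaks the smallest of their 3 steps was the largest. MT-RNR1, the small subunit RNA, was at 672, 686 and 694 CPM in the vehicle, 3003, 2952 and 2669.6 at the low dose, 20056, 19222 and 18189.6 at the medium dose and 8309.7, 8408 and 7989 at the high dose. Every dose stood apart from the vehicle and from the other doses, and all medium libraries were above all high libraries. The fall from medium to high was -1.22 ± 0.05 (log2 fold change ± SE, n = 3 against 3, adjusted p = 9e-30), after a rise of 4.81 over vehicle at the medium dose. MT-RNR2, the large subunit RNA, was at 8715, 8341 and 9148 CPM in the vehicle, 78317, 75804 and 69916 at the medium dose and 30965, 31149.7 and 28771 at the high dose. Its groups did not overlap either, and its log2 change was -1.3 ± 0.05 (adjusted p = 5.3e-31). Together both RNAs took 0.918% to 0.995% of counts in the vehicle, 2.11% to 2.37% at the low, 8.16% to 9.02% at the medium and 3.04% to 3.20% at the high dose. In the 17 groups of the series without Coptis the mean share was 0.775% to 1.21%. No source used here says how ribosomal RNA was removed or messenger RNA selected, and the part of that step in these levels was not tested.

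Most mitochondrial messenger RNAs went the other way. MT-CO2, a subunit of cytochrome c oxidase, was at 4703, 4685 and 4704 CPM in the vehicle, 2387, 2283 and 2258 at the medium dose and 4603, 3959 and 3769 at the high dose. The medium libraries were below all others, and the rise from medium to high was 0.83 ± 0.08 (adjusted p = 1.4e-13). MT-CO3, of the same complex, rose from 2634, 2622 and 2628 CPM to 5079, 5194 and 4599.5, a log2 change of 0.92 ± 0.06 (adjusted p = 7.9e-20). MT-ND3, a complex I subunit, rose from 606, 605 and 609 to 1386, 1239 and 1151 CPM, a log2 change of 1.05 ± 0.11 (adjusted p = 1.2e-12). Over the 15 mitochondrial RNAs, 9 were higher and 2 lower at the high than at the medium dose. Over all tested genes 35% were higher and 36.4% lower. The 2 ribosomal RNAs were the peaks, and MT-ND2, MT-ND3, MT-ND4, MT-CO1, MT-CO2, MT-CO3 and MT-ATP6 had troughs. All 9 of these turns were also called under library total scaling. MT-ND1 was not called (0.20 ± 0.11, adjusted p = 0.1), but was called without the expression filter, without the third high library, with the exon length trend taken out and in a fit of the 6 libraries with a replicate block. MTCO1P12, a nuclear pseudogene copy of MT-CO1, had a trough too, and its reads cannot be told from those of MT-CO1 with certainty. The nuclear genes of respiratory chain subunits had a median of 0.19 between medium and high dose, with 31 of 40 higher and 2 lower. Of the 40 genes 2 had troughs, beside 3.22% of all tested genes. Under library totals 14 of the 40 were higher and 5 lower, with a median of 0.01, beside 4502 and 8261 of all 17569 tested genes.

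**Figure D2:**
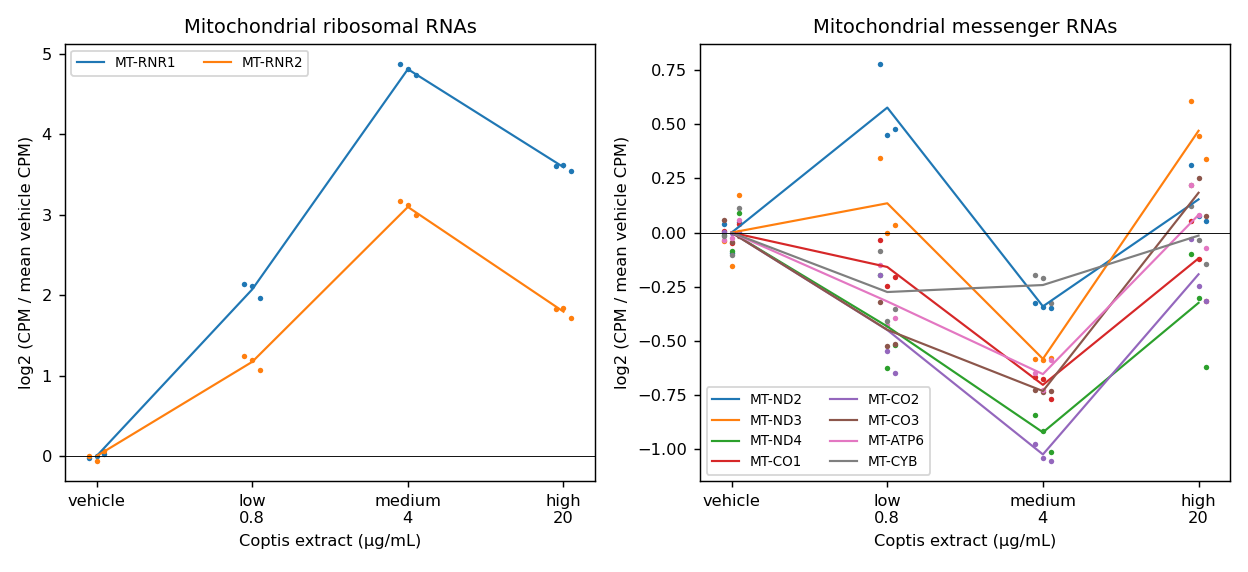
Mitochondrial ribosomal RNAs (left) and 8 mitochondrial messenger RNAs (right) as log2 of CPM over the mean vehicle CPM, by dose of Coptis extract in µg/mL; points are single libraries, 3 per group, and lines join the log2 of group means. The ribosomal RNAs rise to the medium dose and fall at the high dose. Of the messengers shown, all but MT-CYB were called as troughs at the medium dose.

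The integrated stress response divided between peaks and climbers. Of 42 tested genes of the list 40 were above vehicle at the medium dose, where 21% of all genes were, with a median of 1.29. From medium to high 27 were higher and 11 lower, beside 35% and 36.4% of all genes, and 4 were not called. The median of the list was 0.40 against -0.04 over all genes. Under library totals 24 were higher and 15 lower, with a median of 0.23, beside 4502 and 8261 of all 17569 tested genes. Peaks were CHAC1, ALDH1L2, PSAT1, PSPH, SLC7A11, DDIT4, VLDLR, CBS, WARS1 and INHBE, 10 of 42, beside 3.29% of all genes. All 10 were also called as peaks with RLE size factors, with library totals and with DESeq2.

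CHAC1, which degrades glutathione, was at 4.06, 2.98 and 3.85 CPM in the vehicle, 4.53, 5.05 and 5.16 at the low dose, 40.8, 41.4 and 40.6 at the medium dose and 21.9, 19.1 and 22.1 at the high dose. The high libraries lay between the low and the medium ones without overlap, and the fall was -0.96 ± 0.07 (adjusted p = 5.3e-19). SLC7A11, the cystine importer, went from 336, 349 and 316 CPM to 208, 205 and 219, and fell by 0.66 ± 0.04 (adjusted p = 2.4e-22). Its high libraries still lay above those of the vehicle, at 142, 134 and 137. PSAT1, an enzyme of serine synthesis, went from 288, 291 and 294 CPM at the medium dose to 200.5, 206 and 212 at the high dose and fell by 0.50 ± 0.03 (adjusted p = 7.8e-21). ALDH1L2, the mitochondrial enzyme that oxidises formyl-tetrahydrofolate, went from 66.9, 67.4 and 65.9 to 36.9, 42.0 and 42.0 CPM and fell by 0.73 ± 0.06 (adjusted p = 1e-15). PSPH, which completes serine synthesis, had means of 38.1 ± 1.3 and 27.0 ± 1.3 CPM (SD, n = 3), and CBS, of the transsulfuration route from homocysteine to cysteine, had 38.0 ± 1.6 and 28.5 ± 2.0.

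Other ATF4 targets were highest at the high dose. DDIT3, the transcription factor CHOP, went from 105, 102 and 105 CPM at the medium dose to 675, 664 and 651 at the high dose, a log2 change of 2.68 ± 0.05 (adjusted p = 2.9e-43). GDF15, a secreted stress cytokine, went from 60.5, 63.6 and 67.2 CPM to 687, 712 and 679.5, a log2 change of 3.44 ± 0.05 (adjusted p = 1.3e-49). No high library of either gene came near a medium library. PPP1R15A rose by 2.71 ± 0.04, ATF3 by 2.98 ± 0.08 and TRIB3, a pseudokinase that binds AKT, by 1.69 ± 0.03. ATF4 itself had means of 316 ± 7.0 and 539.8 ± 10 CPM and rose by 0.77 ± 0.03, and ASNS, asparagine synthetase, rose by 0.54 ± 0.03 from 275 ± 6.5 to 399 ± 13 CPM.

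**Figure D3:**
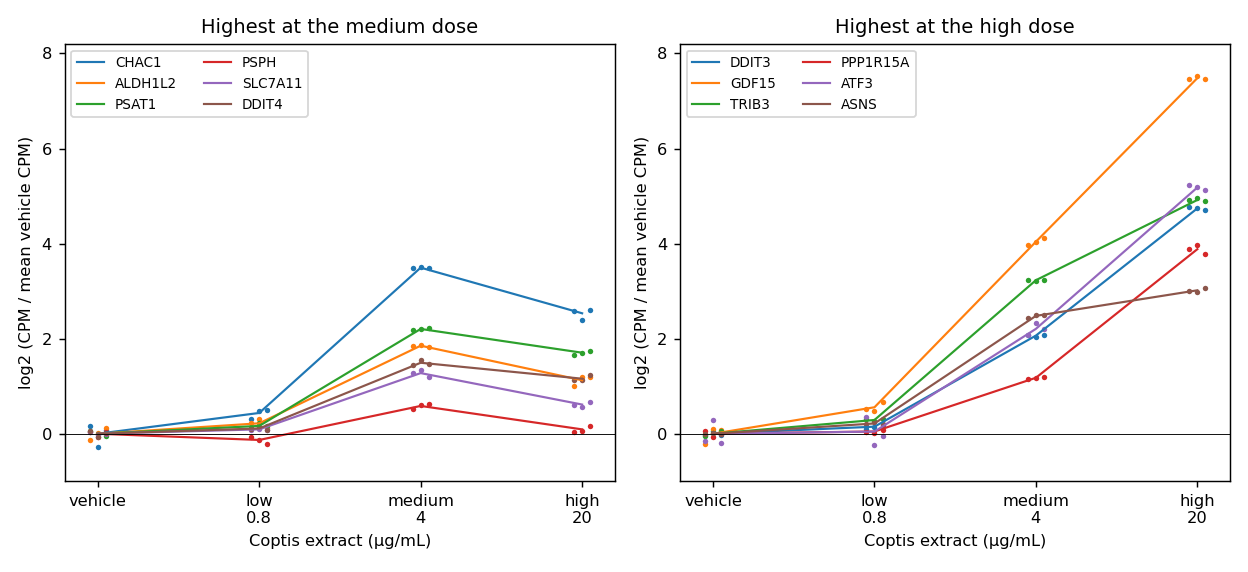
Members of the integrated stress response list as log2 of CPM over the mean vehicle CPM, by dose of Coptis extract in µg/mL; points are single libraries, 3 per group, and lines join the log2 of group means. The 6 genes on the left are highest at the medium dose and the 6 on the right, with GDF15 and ATF3 among the steepest, at the high dose.

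Targets of YAP and of serum response factor, among them genes of the contractile cytoskeleton, held many peaks. Of 26 tested members 22 were above vehicle at the medium dose, where 21% of all genes were. From medium to high 8 were higher and 12 lower, near the 35% and 36.4% of all genes. Under library totals 6 were higher and 16 lower, beside 4502 and 8261 of all 17569 tested genes. Peaks were ACTA2, CCN2, AJUBA, ACTB, TAGLN, MYL9, CALD1, AMOTL2 and LMOD1, 9 of 26, beside 3.29% of all genes. Of these MYL9 was not called as a peak under RLE and DESeq2, and CALD1, AMOTL2 and LMOD1 were not under library totals. ACTA2, smooth muscle actin, was at 152, 157 and 155 CPM at the medium and 103, 104 and 109 at the high dose, with 86.3, 86.9 and 84.6 in the vehicle. The groups did not overlap, and the fall was -0.55 ± 0.04 (adjusted p = 7.5e-19). AJUBA, a LIM protein that restrains the Hippo kinases, went from 124, 120.2 and 123 to 65.4, 66.6 and 64.3 CPM, below the vehicle at 94.7, 94.2 and 97.0, and fell by 0.90 ± 0.04 (adjusted p = 3.8e-28). CCN1, a matricellular target of YAP, climbed from 475 ± 14 to 1034 ± 54 CPM instead.

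Among the 10 steepest peaks by the smallest of their 3 steps were, besides MT-RNR1, MT-RNR2 and CHAC1, MOCOS, KRTAP1-5, KRTAP2-3, ECM2, MFAP3L and the long noncoding RNAs EPM2A-DT and NHSL1-AS1. MOCOS, which sulfurates the molybdenum cofactor, was at 3.68, 3.72 and 3.09 CPM in the vehicle, 11.1, 11.4 and 12.5 at the medium and 5.36, 5.03 and 6.53 at the high dose. The 3 groups stood apart, and the fall was -1.05 ± 0.11 (adjusted p = 1.8e-12). KRTAP1-5 and KRTAP2-3 are keratin-associated proteins of a gene cluster with near-identical members, so the split of their reads is uncertain. KRTAP1-5 went from 4.08 ± 0.72 to 1.61 ± 0.09 CPM and KRTAP2-3 from 3.77 ± 0.17 to 1.89 ± 0.17. All 10 were also called as peaks under RLE, library totals and DESeq2.

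TXNIP had the largest smallest step among the named troughs, which excludes genes of low mean level. It was at 9.65, 9.22 and 9.98 CPM in the vehicle, 5.01, 5.93 and 5.36 at the low dose, 1.05, 1.81 and 1.10 at the medium dose and 2.95, 2.93 and 2.58 at the high dose. The high libraries lay above all medium ones and below all low ones. The rise from medium to high was 1.12 ± 0.17 (adjusted p = 6.2e-08), and the high dose remained 1.77 log2 units below vehicle. NDRG4 was not called against vehicle at the high dose, with 8.21, 8.48 and 7.94 CPM in the vehicle, 4.01, 4.60 and 4.18 at the medium and 8.93, 8.36 and 8.40 at the high dose. Its rise was 1.01 ± 0.11 (adjusted p = 2.7e-12). DDIT4L, which restrains mTORC1 signalling as its paralog DDIT4 does, went from 7.12, 8.47 and 7.72 CPM to 17.2, 14.6 and 18.5, a log2 change of 1.12 ± 0.09 (adjusted p = 4.4e-16). DDIT4 moved oppositely and peaked at the medium dose, with means of 218 ± 8.3 and 173 ± 7.4 CPM. CKB, cytosolic creatine kinase, GAS1, HLF, CDT1, ITPKB, PSMC3IP and MTCO1P12 complete the 10 steepest troughs, all also called under RLE, library totals and DESeq2.

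Genes of DNA replication were lower at the medium dose, 40 of 40 tested, where 20.2% of all genes were lower. Between medium and high they parted, with 15 higher, 23 lower and a median of -0.31, which was -0.49 under library totals. The counts in this paragraph, apart from that under library totals, stand beside 35% of all tested genes higher, 36.4% lower and 3.22% with troughs. The 15 troughs were MCM2, MCM5, MCM7, CDC6, CDT1, CDC45, RFC2, RFC4, RFC5, RRM1, POLD1, LIG1, RPA2, E2F1 and SLBP. Under library totals the list held 10 troughs, beside 1109 among all 17569 tested genes. CDT1, a licensing factor of replication origins, went from 17.3 ± 0.88 to 28.1 ± 2.5 CPM, against 28.7 ± 0.90 in the vehicle. UHRF1, which recruits the maintenance DNA methyltransferase, fell further from 46.7 ± 1.3 to 11.1 ± 0.77 CPM, and MCM3 of the replicative helicase from 91.6 ± 2.2 to 42.1 ± 0.94. Genes of G2 and mitosis mostly fell, 28 of 35 against 3 higher, with a median of -0.54. KIF20A, a mitotic kinesin, went from 73.6, 74.7 and 68.5 CPM to 11.3, 14.1 and 10.8, a log2 change of -2.59 ± 0.05 (adjusted p = 2.2e-42), and AURKA, a mitotic kinase, from 78.3 ± 2.5 to 19.1 ± 0.66.

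Glycolytic enzymes had shallow troughs. Of 38 hypoxia and glycolysis genes 20 were below vehicle at the medium dose, where 20.2% of all genes were. From medium to high 28 were higher and 8 lower with a median of 0.31, beside 35% and 36.4% of all genes. Under library totals 21 were higher and 10 lower with a median of 0.14, beside 4502 and 8261 of all 17569 tested genes. Troughs were GPI, ALDOA, TPI1, GAPDH, PGK1, ENO1, PKM, LDHA, CA9, BNIP3 and P4HA1, 11 of 38, beside 3.22% of all genes. Of these members TPI1, PGK1, ENO1, PKM and LDHA were not called as troughs under library totals. GAPDH was at 3499, 3545 and 3589.8 CPM in the vehicle, 3079, 3122 and 3117 at the medium and 3986, 4217 and 4184 at the high dose. The groups did not overlap, and the rise was 0.41 ± 0.03 (adjusted p = 1e-16). The entry points of glucose climbed steeply instead. SLC2A1, the glucose transporter GLUT1, went from 205, 222 and 220.3 CPM to 1114, 1174 and 1039, a log2 change of 2.36 ± 0.04 (adjusted p = 2.1e-47), and HK2, hexokinase 2, rose by 1.64 ± 0.04.

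Chaperones of the endoplasmic reticulum rose, and those of the cytosol did not share a direction. All 24 tested genes of endoplasmic reticulum folding rose from the medium to the high dose, where 35% of all genes did, with a median of 0.63. HSPA5, the chaperone BiP, went from 6981, 7109 and 6924 CPM to 17864, 18499 and 17872, a log2 change of 1.37 ± 0.03 (adjusted p = 1e-42). Under library totals 21 of the 24 were higher and 1 lower, beside 4502 and 8261 of all 17569 tested genes. Of 20 cytosolic heat shock genes 15 were below vehicle at the medium dose, where 20.2% of all genes were. From medium to high 9 of the 20 rose and 7 fell, near the 35% and 36.4% of all genes. Their median of 0.05 turned to -0.12 under library totals. HSP90AB1, the constitutive HSP90, was at 1529, 1527 and 1549 CPM in the vehicle, 1349.5, 1324 and 1334 at the medium and 1944, 2100.4 and 1942 at the high dose, and rose by 0.58 ± 0.03 (adjusted p = 3e-26). HSPA1A, the inducible HSP70, fell from 71.3, 74.6 and 71.5 to 13.5, 16.7 and 15.9 CPM, a log2 change of -2.24 ± 0.08 (adjusted p = 2.2e-30), with the caution that its reads are shared with the near-identical HSPA1B. Of 31 proteasome subunits 16 were below vehicle at the medium dose and 8 had troughs, beside 20.2% and 3.22% of all genes. From medium to high 22 of the 31 rose and 4 fell, beside 35% and 36.4% of all genes. Under library totals 9 were higher and 8 lower, beside 4502 and 8261 of all 17569 tested genes, and their median of 0.16 was -0.02.

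A reversal was called when medium and high dose lay on opposite sides of the vehicle, each with an adjusted p under 0.05. Medium was above and high below vehicle in 349 genes (1.99%), and medium below and high above in 435 (2.48%). Both kinds were shallow, with a median smaller step of 0.21 and 0.15 on the log2 scale, and 0 reversals were left when each step had to exceed 1.5-fold in edgeR's test, against 4 at an unadjusted p under 0.05. Of the genes that went from above to below vehicle 86.8% were protein coding, and of those that went from below to above 99.3%, beside 78.4% of all tested genes. Their median mean log2 CPM was 4.66 and 6.16, beside 3.96 over all tested genes. The part of expression level in these shares was not tested. Scaling to library totals gave 228 and 654 reversals, of which 99 and 132 were the same genes, so single small reversals depend on the scaling.

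Among the 10 steepest genes that turned from above to below vehicle was CEACAM19, an adhesion molecule of the CEA family. It was at 2.84, 2.87 and 3.85 CPM in the vehicle, 5.32, 6.84 and 5.24 at the medium and 1.93, 1.32 and 0.933 at the high dose. The 3 groups did not overlap, and the fall from medium to high was -2.04 ± 0.17 (adjusted p = 1e-15). NEAT1, the long noncoding RNA that builds paraspeckles, was at 499.9, 555 and 552 CPM in the vehicle, 796, 768 and 832 at the medium and 425, 256 and 307 at the high dose. Its high libraries spread more widely than the others but stayed below all vehicle libraries, and the fall was -1.27 ± 0.11 (adjusted p = 7.5e-16). ECM2, a matrix protein, went from 2.16 ± 0.39 CPM in the vehicle to 3.89 ± 0.52 and 1.29 ± 0.31, and CPT1B, the muscle form of the mitochondrial fatty acid importer, from 3.28 ± 0.27 to 5.04 ± 0.73 and 1.49 ± 0.49. The others were ST8SIA1, a ganglioside sialyltransferase, PAQR6, FAM228B, DNAH1, an axonemal dynein chain, and the antisense RNAs ST7-AS1 and STXBP5-AS1. All 10 were also called as reversals under RLE, library totals and DESeq2. As no source used here gives the strand setting of the counting, reads of the antisense RNAs and of the genes they overlap are uncertain.

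Among the 10 steepest in the opposite direction was ADAMTS1, a secreted metalloprotease. It was at 51.8, 55.8 and 53.1 CPM in the vehicle, 39.6, 39.1 and 38.6 at the medium and 157, 165 and 156 at the high dose. No libraries overlapped between the groups, and the rise from medium to high was 2.03 ± 0.04 (adjusted p = 1.7e-43). BCL2L11, the proapoptotic protein BIM, was at 8.77, 8.91 and 9.22 CPM in the vehicle, 5.84, 7.44 and 5.31 at the medium and 22.4, 23.5 and 22.0 at the high dose, and rose by 1.88 ± 0.08 (adjusted p = 2.9e-27). RSPO3, a secreted amplifier of WNT signalling, went from 2.92 ± 0.32 in the vehicle to 1.76 ± 0.19 and 4.68 ± 0.22 CPM, and PRRG4 from 6.62 ± 0.19 to 4.85 ± 0.24 and 9.96 ± 0.97. These 4 were also called under library totals, and the other 6, RAB3A, CALML4, CEP152, MT-ND3, AL359922.2 and AC105052.3, were not, whereas all 10 were called under RLE and DESeq2. SLBP, the histone stem-loop binding protein, reversed as well and was called under library totals, with 57.3 ± 0.18, 49.6 ± 1.2 and 104 ± 3.8 CPM. Reversed genes from the replication and chaperone lists, MCM5, CDC6, E2F1 and HSP90AB1, took smaller steps from the vehicle, and MCM5, CDC6 and E2F1 were not called as reversals under library totals.

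**Figure D4:**
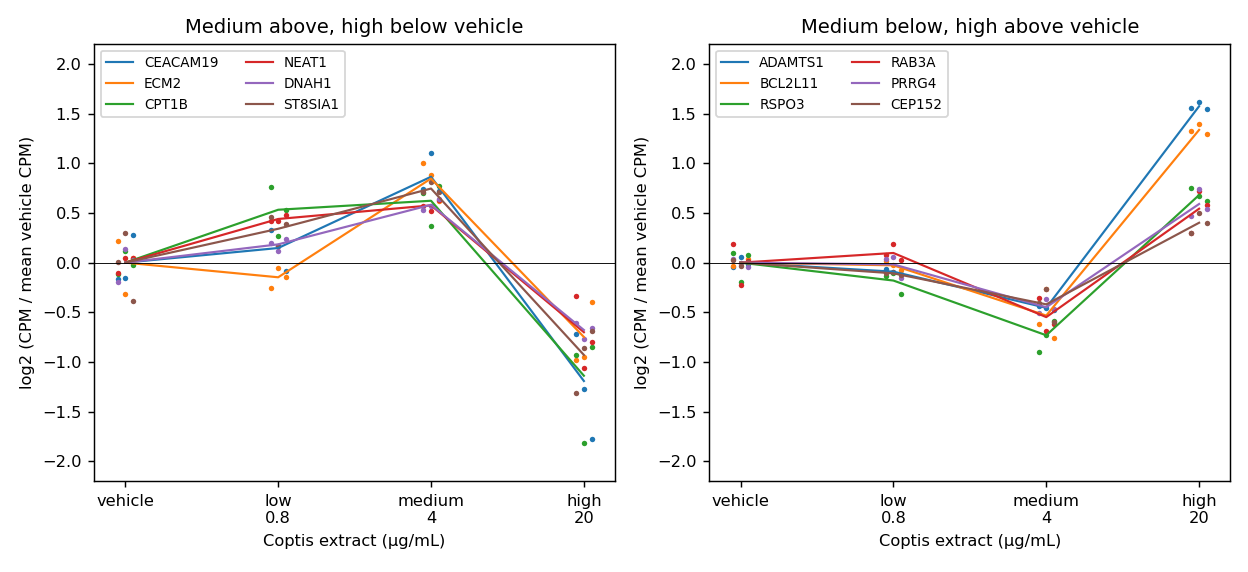
Reversed genes as log2 of CPM over the mean vehicle CPM, by dose of Coptis extract in µg/mL; points are single libraries, 3 per group, and lines join the log2 of group means. Genes on the left pass from above 0 at the medium dose to below 0 at the high dose, and those on the right the other way; RAB3A and CEP152 were not called as reversals under library total scaling.

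The largest rise from medium to high among the named genes was that of a neurotrophin receptor. NGFR, known as p75, was at 4.04, 4.86 and 4.18 CPM at the medium and 166, 182 and 181 at the high dose, a log2 change of 5.34 ± 0.09 (adjusted p = 6.9e-45). NR1D1, the clock repressor REV-ERBα, was at 37.4, 38.0 and 39.1 CPM and then 358, 372 and 306, a log2 change of 3.18 ± 0.05 (adjusted p = 7.8e-46). In both the high libraries stood far above all medium libraries. YPEL2 rose by 3.65 ± 0.13, PPP1R3B, which directs protein phosphatase 1 to glycogen, by 3.25 ± 0.05, ADM, the vasodilator peptide adrenomedullin, by 3.12 ± 0.08, TBX2, a T-box repressor, by 3.07 ± 0.07 and CIART, a repressor of the clock, by 3.07 ± 0.06. Outside the filter on mean level, HRK, a proapoptotic BH3-only protein picked from the BCL2 list, went from 0.113 ± 0.056 to 5.44 ± 0.33 CPM, and its fitted change of 5.51 rests on few counts at the medium dose.

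The largest falls were of genes of low level. PAPPA-AS1, an antisense RNA, was at 1.35, 2.37 and 3.26 CPM at the medium dose and had 0 counts in all 3 high libraries, so it was at least 16.9-fold lower against a floor of 3 counts per library. CCN4, a WNT-induced matricellular protein, went from 7.19, 7.91 and 8.61 CPM to 0.264, 0.489 and 0.355, a log2 change of -4.42 ± 0.21 (adjusted p = 6.2e-26), and the groups did not overlap. CMKLR1, the chemerin receptor, fell by 3.74 ± 0.24, CD248, the stromal marker endosialin, by 3.40 ± 0.30, SHROOM2, an actin regulator, by 3.38 ± 0.34 and CENATAC-DT and AC067773.1, which are noncoding, by 3.51 ± 0.29 and 3.42 ± 0.33. AC112229.1, a pseudogene, fell too, but its libraries varied widely, at 5.21, 2.80 and 2.83 CPM at the medium and 0, 0.782 and 0 at the high dose. COL1A1, the chain of type I collagen, went from 2539, 2637 and 2647 CPM to 664, 676 and 691, a log2 change of -1.95 ± 0.03 (adjusted p = 1.2e-44), and COL1A2 and THBS1 fell by 1.57 ± 0.03 and 1.37 ± 0.04. The 32 collagen and matrix genes did not share a direction, with 15 higher and 11 lower and a median of 0.08 that was -0.10 under library totals. These counts stand beside 35% of all tested genes higher and 36.4% lower.

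Ribosomal protein and lysosome genes rose together. The counts that follow stand beside 35% of all tested genes higher and 36.4% lower at the high than at the medium dose. Those under library totals stand beside 4502 higher and 8261 lower among 17569 tested genes. All 52 cytosolic ribosomal proteins were higher at the high than at the medium dose, with a median of 0.47, and 52 were higher also under library totals, with a median of 0.29. Of 27 lysosome and autophagy genes 26 were higher and 1 lower, with a median of 0.63, and MAP1LC3B, the autophagosome protein LC3B, rose from 136 ± 3.3 to 274 ± 4.9 CPM. FOXO targets had 15 of 22 higher and 4 lower, among them IRS2, the insulin receptor substrate, from 54.8 ± 3.9 to 444 ± 28 CPM. The BCL2 family had 10 of 14 higher and 2 lower, and p53 targets 17 of 27 higher and 7 lower, with CDKN1A, the cell cycle inhibitor p21, rising from 20.8 ± 0.55 to 65.8 ± 1.5 CPM. Of 32 NF-κB genes 16 were higher and 7 lower, with a median of 0.27 that was 0.10 under library totals. IL6 rose by 2.67 ± 0.09 and CXCL8 by 2.52 ± 0.10, while CCL2 fell by 2.42 ± 0.11. Replication-dependent histones had 6 of 12 lower and 0 higher, and 8 lower under library totals. Of 5 tested metallothionein and zinc export genes 3 were lower, and MT1E and MT1X, paralogs whose reads may be shared, peaked at the medium dose, though not under library totals. MT1E went from 18.1, 17.3 and 18.7 to 7.56, 8.11 and 6.89 CPM.

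**Figure D5:**
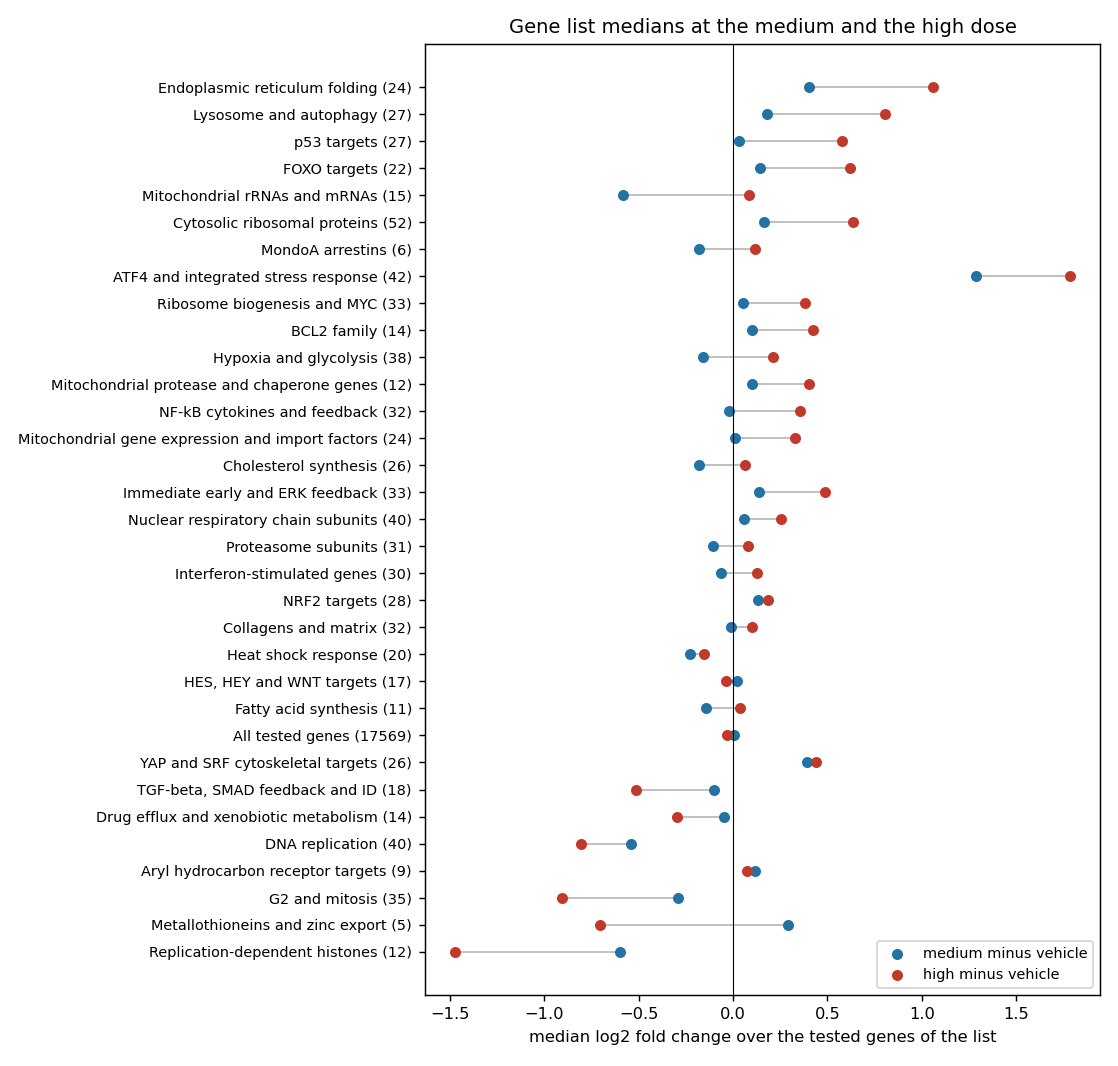
Median log2 fold change against vehicle over the tested genes of each list at the medium dose (blue) and the high dose (red), ordered by the median between high and medium dose, with the number of tested genes in brackets; the grey line joins both medians of a list. The integrated stress response has the highest medians, at 1.29 and 1.78, and all tested genes together lie near 0.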

How the data were processed

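RNA of SW1783 cells was made into directional libraries and read as 100 bp pairs, per the labels' protocols. Expected counts per gene, not scaled for depth, were deposited by the authors. STAR 2.7.3a, RSEM 1.3.3, Trim Galore 0.6.5, FastQC 0.11.9 and build GRCh38 are listed in the submitters' processing notes. No source used here gives the aligner settings, annotation release or strand setting. All columns were matched to libraries by their code in the labels, and 0 were left unmapped.

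Values, of which 90.5% were whole, were rounded to whole counts. In R 4.3.3 with edgeR 4.0.16, filterByExpr kept 17569 of 37383 genes with any count. TMM scaling and a quasi-likelihood fit of all 60 libraries with 1 mean for each of 20 groups (40 residual degrees of freedom, biological coefficient of variation 3.24%) were used. Tests were two-sided, with Benjamini-Hochberg adjustment over all tested genes and calls under 0.05. CPM of tested genes use the TMM factors, while shares and marker sums are over library totals. Errors of log2 fold changes are SE and those of CPM are SD. A count of 0 was bounded by 3 counts, which covers counting error only. None of the 12 replicate pairs of the 4 groups was identical, and their chi-square per gene was 1.92 to 4.46, more than counting error alone gives, so no library was taken for a second copy of another.

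Named genes are the 8 largest rises and falls, the 10 peaks, troughs and reversals of each direction with the largest smallest step, all with non-overlapping libraries, a symbol and a mean log2 CPM of at least 1, up to 4 members of each list with the smallest p, and 30 single genes. Other list members named for their class or role, HRK among them, were chosen after their values were seen. The groups, gene lists and single genes were chosen with earlier results of these data known, and lists are described by counts and medians without a test.

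Alternatives were RLE size factors, library totals, DESeq2 1.42.0, no filter, removal of mitochondrially encoded genes, an exon length correction, fits of fewer libraries, a replicate block, a 1.5-fold threshold and leaving out each library. The procedure was also run on simulated data, with 50 of 17274 genes changed in each setting. It recovered 30 of 50 peaks set at 1.2-fold and 44 of 50 set at 1.5-fold. Of 50 changes between high and medium dose set at 1.2-fold it recovered 41. A shift over most of the transcriptome was not tested. Promoter sequences are from RefSeq.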

Additional observations from a re-analysis of the deposited data

Results flagged for a closer look

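The 11 peaks and 3 troughs that passed the 1.5-fold threshold in every step were compared with the same step, high against medium dose, of the extract of Scutellaria root (410 against 82 µg/mL). This comparison was chosen after seeing the data, and the doses of both extracts differ. The difference of the log2 changes, Coptis minus Scutellaria, was tested in the same fit with edgeR's quasi-likelihood test over all genes, of which 11003 (62.6%) differed. Of the 14 genes 12 differed, with SE of the differences from 0.053 for SLC7A11 to 1.68 for AC023509.2.

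The genes were chosen by their step with Coptis, which enters the difference, so its sign and part of its size are set by that choice and are given as a description. The difference was -2.58 for MOCOS, -2.52 for CHAC1, -2.32 for ALDH1L2, -2.61 for SLC7A11 and -1.48 for IL20RB. CHAC1 and SLC7A11 rose with Scutellaria, by 1.56 and 1.95 on the log2 scale. The mitochondrial ribosomal RNAs differed by -1.39 for MT-RNR1 and -1.5 for MT-RNR2, and MT-RNR2 changed by 0.20 with Scutellaria. The difference was -4.05 for KLHDC7B, whose peak was not called by DESeq2, -4.47 for KRTAP1-5 and -2.03 for SMG1P7. The last 2 belong to families of near-identical copies, so the split of their reads is uncertain.

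The trough gene NDRG4 differed by 1.53. AC023509.2 differed by a fitted 6.33, which is no bound, since it had 0 counts in all 3 medium libraries of Coptis. PDGFB at -0.85 ± 0.39 (adjusted p = 0.053) and TXNIP at 0.37 ± 0.19 (adjusted p = 0.082) were not called different.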

How the results depend on the processing

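The total of called genes was within 1.5 times its reported value under every alternative except the 1.5-fold threshold, which gave 4285 genes, 1695 higher and 2590 lower, with 11 peaks, 3 troughs and 0 reversals, 0 in each direction. Library totals gave 317 peaks, 1109 troughs and 228 and 654 reversals, of which 235 peaks and 341 troughs were the same genes; their split of the calls was 35.3% higher against 49%. RLE size factors gave 539 peaks and 592 troughs, and DESeq2 448 and 547. Leaving out each library gave 12016 to 12208 called genes, 5974 to 6025 higher and 6042 to 6218 lower, with 489 to 581 peaks, 459 to 569 troughs and 620 to 789 reversals, 283 to 357 downward and 331 to 432 upward. Under library totals the median of these lists turned negative: collagens -0.10, fatty acid synthesis -0.17, heat shock -0.12, HES, HEY and WNT targets -0.16, interferon-stimulated genes -0.0231, NRF2 targets -0.0551 and proteasome -0.0211. Of the values of single genes under the alternatives 0 reversed, 10 were weaker, all under the 1.5-fold threshold, and 5 were stronger.

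Same-numbered libraries of the medium and high dose correlated by 0.0105, 0.0119 and 0.0187 in their deviations. Each library correlated best with its own number, but all of these values were under the minimum of 0.1 used for pairing. The numbers were therefore not taken as pairs. With a replicate block 12582 genes, 588 peaks, 584 troughs and 799 reversals were called, and in the 6 libraries alone 11950 without and 11904 with the block. Depth limits genes under a few CPM, and a count of 0 cannot be told from 3 counts.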

Other observations

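Genes of the circadian clock formed no list of the report and were looked up after NR1D1 and CIART were seen among the largest rises, so the choice is not independent of these values. Of 18 tested clock genes 15 were higher at the high than at the medium dose, where 35% of all genes were, and PER3, NPAS2 and CLOCK were lower, by -0.15, -0.46 and -0.68 on the log2 scale. Against vehicle 8 were higher and 3 lower at the medium dose, beside 21% and 20.2% of all tested genes. DBP, a clock-driven transcription factor of the PAR bZIP family, went from 3.09 to 17.6 CPM, a log2 change of 2.51. PER1, of the repressive arm of the clock, went from 28.6 to 137 CPM, a log2 change of 2.26. NR1D2, the paralog of NR1D1, rose by 1.48, TEF, another PAR bZIP factor, by 1.42, BHLHE41 by 1.58, CRY2 by 1.16 and NFIL3 by 1.12. All cells were harvested at the same time after treatment, and the clock phase at harvest was not measured.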
